A study of Rattus norvegicus with 12 samples.

Results

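Rab proteins are small GTPases that direct membrane traffic. Outside the Rab3 and Rab27 groups, 50 Rab genes of the 14218 genes with a single symbol were measured, through 87 of 31099 probe sets. A probe set is a group of short oligonucleotides that reads 1 transcript. The members were all genes whose symbol is Rab followed by a number and at most a letter from a to d, with Rab3a to Rab3d, Rab27a and Rab27b left out. Probe sets annotated with both Rab1a and Rab1b, 3 in number, were left out with them. Where a gene had several probe sets, as 24 did, the one of highest mean signal stands for it.

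The cells were CRI-G1, a rat pancreatic islet tumour line that secretes insulin. CRI-G1-RR is the original, rotenone-resistant clone, and CRI-G1-RS is a rotenone-sensitive subclone frozen after a single spontaneous change of shape in long culture, so that it stands for 1 such event. Both were untreated and grown in high glucose DMEM with serum, and 6 passages were taken in pairs, with 1 sample of each line. Total RNA was hybridized to 12 Affymetrix Rat 230 2.0 arrays, 6 per line, each read as linear signal intensities scaled to about the same trimmed mean. Replicates are passages of 1 clone each, so p-values measure the spread between passages, and a difference between the lines cannot be told apart from one between any pair of clones. The mean correlation of an array with the others of its line was 0.979 for replicate 2 of CRI-G1-RS and at least 0.981 for the other arrays. The beta cell markers fitted the label in part: 7 of 9 were over a signal of 100 in RR cells and 8 of 9 in RS cells, with summed signals of 15690 to 17773 and 20045 to 22975, but Slc2a2, the glucose transporter of rat beta cells, was near 0 in both lines and the alpha cell hormone gene Gcg was bright in both. Of the acinar, fibroblast and leukocyte markers, none of 6, 5 and 5 reached a mean signal of 100 in either line, with sums of at most 203, 222 and 189. Of 4 duct markers, Krt7 alone was bright, and it was lower in RS cells. Of the 9 beta cell markers 6 were higher and 1 lower in RS cells, and of the other islet hormone genes Ghrl, dim in both, was higher. The part of these shifts in the Rab results was not tested.

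A Rab protein is switched on by an exchange factor, which lets it bind GTP, and switched off by a GTPase-activating protein, which speeds GTP hydrolysis. In the GTP form it sits on its own membrane and recruits effectors that move, tether or fuse vesicles, and a lipid tail added by geranylgeranyl transferase holds it there. In islet cells, Rab proteins act on the way from the endoplasmic reticulum through the Golgi to the insulin granule, and on the endosomes that recover granule membrane after secretion.

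Promoter sequence came from RefSeq (GRCr8 assembly, 250 bases before an annotated start, printed 5′ to 3′ on the gene's strand). It was matched by Entrez gene identifier for 39 of the 50 genes. Of these, 10 were among the genes that passed the test below. The start used can lie inside the gene. The Rab30 window (chr1:156288711-156288960) lies within the gene span of 156216137 to 156310778. Those of Rab5a, Rab7a, Rab14 and Rab15, among others, also lie inside, and that of Rab31 runs into its gene span. Rab6a and Rab6b are shown since they are related genes that moved in opposite directions, Rab40b since it rose most, and Rab21 and Rab31 since they moved in opposite directions and both hold an E-box, CACGTG, given in capitals. Rab6a lies at chr1:164369783-164370032 on the plus strand, Rab6b at chr8:112573973-112574222 on the plus strand, Rab40b at chr10:107157376-107157625 on the minus strand, Rab21 at chr7:52814944-52815193 on the minus strand, and Rab31 at chr9:112828093-112828342 on the minus strand.
Rab6a: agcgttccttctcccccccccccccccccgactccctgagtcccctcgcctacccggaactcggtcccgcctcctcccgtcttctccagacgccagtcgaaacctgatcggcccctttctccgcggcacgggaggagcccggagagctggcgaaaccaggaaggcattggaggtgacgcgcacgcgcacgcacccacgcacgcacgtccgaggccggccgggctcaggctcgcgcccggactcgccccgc
Rab6b: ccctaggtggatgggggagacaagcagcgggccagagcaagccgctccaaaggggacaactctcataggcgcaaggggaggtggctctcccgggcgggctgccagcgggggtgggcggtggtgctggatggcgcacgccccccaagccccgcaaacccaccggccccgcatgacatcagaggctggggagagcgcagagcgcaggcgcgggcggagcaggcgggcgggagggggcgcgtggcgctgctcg
Rab40b: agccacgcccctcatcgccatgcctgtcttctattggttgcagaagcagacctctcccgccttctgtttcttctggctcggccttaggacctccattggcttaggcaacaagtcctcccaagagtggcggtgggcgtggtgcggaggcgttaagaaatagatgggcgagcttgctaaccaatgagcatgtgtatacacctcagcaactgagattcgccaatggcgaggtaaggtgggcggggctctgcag
Rab21: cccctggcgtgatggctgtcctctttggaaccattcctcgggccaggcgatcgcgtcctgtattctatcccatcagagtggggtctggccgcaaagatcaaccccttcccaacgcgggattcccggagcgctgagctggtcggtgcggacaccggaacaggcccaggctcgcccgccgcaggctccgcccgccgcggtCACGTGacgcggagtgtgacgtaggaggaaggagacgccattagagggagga
Rab31: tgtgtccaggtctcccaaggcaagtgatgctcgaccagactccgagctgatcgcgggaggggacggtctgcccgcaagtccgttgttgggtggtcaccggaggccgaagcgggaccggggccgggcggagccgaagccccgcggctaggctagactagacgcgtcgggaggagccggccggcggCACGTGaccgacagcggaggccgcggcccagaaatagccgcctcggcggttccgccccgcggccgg
The Rab promoters were rich in G and C, with a median of 63.2% against 51.2% over 33469 rat promoter windows of the same length, in which all kinds of annotated genes are held. The letters TATAAA, the TATA box, were found on either strand in 0 of 39 Rab windows and in 12.9% of all windows. The palindrome CACGTG was found in 3 Rab windows, 7.69%, against 5.59% of all: those of Rab5a, Rab21 and Rab31. The core of the antioxidant response element, TGACNNNGC on either strand, was found in 6 Rab windows, 15.4%, against 10.1% of all: those of Rab1a, Rab4b, Rab5a, Rab8b, Rab19 and Rab30, none of which passed the test by its representative probe set, and in Rab5a it overlaps the E-box. The cAMP response element TGACGTCA, searched likewise, was found in Rab25 alone, 2.56% against 1.59% of all. Rab1b, Rab2a, Rab2b, Rab22a, Rab23, Rab24, Rab26, Rab33a, Rab36, Rab37 and Rab38 had no entry. These are matches of letters in a window, not measured sites, and the windows of Rab5a and Rab30 lie inside the gene span.

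RR and RS cells were compared to ask how the resistant and the sensitive line differ. Of the 50 Rab genes, 14 differed between the lines, 5 higher and 9 lower in RS cells, at an adjusted p of 0.05 from limma over all probe sets. That is 28%, where 39.2% of all genes were called, 21.0% of them higher and 18.3% lower. Brighter genes were called more often, so the same was counted at a mean signal of at least 100, where 12 of 38 Rab genes (31.6%) and 53.8% of all genes were called. A log2 fold change (log2FC) is positive where RS cells were higher and refers to quantile-normalized signal + 16, which understates changes of dim genes. Its median over the Rab genes was 0.05, against 0.02 over all genes, and the median of its absolute size was 0.15 against 0.21. Arrays of the lines did not overlap for 10 Rab genes, 5 above and 5 below, which is 20% against 27.2% of all genes. Over the 87 probe sets 13 were higher and 14 lower, or 31%, against 31.7% of all probe sets. The count of higher genes was sensitive to the settings: it became 10 without replicate 2 of CRI-G1-RS, 11 with the mean of all probe sets of a gene and 3 when a 1.2-fold change was tested, while the count of lower genes became 4 in that last test.

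**Figure D1:**
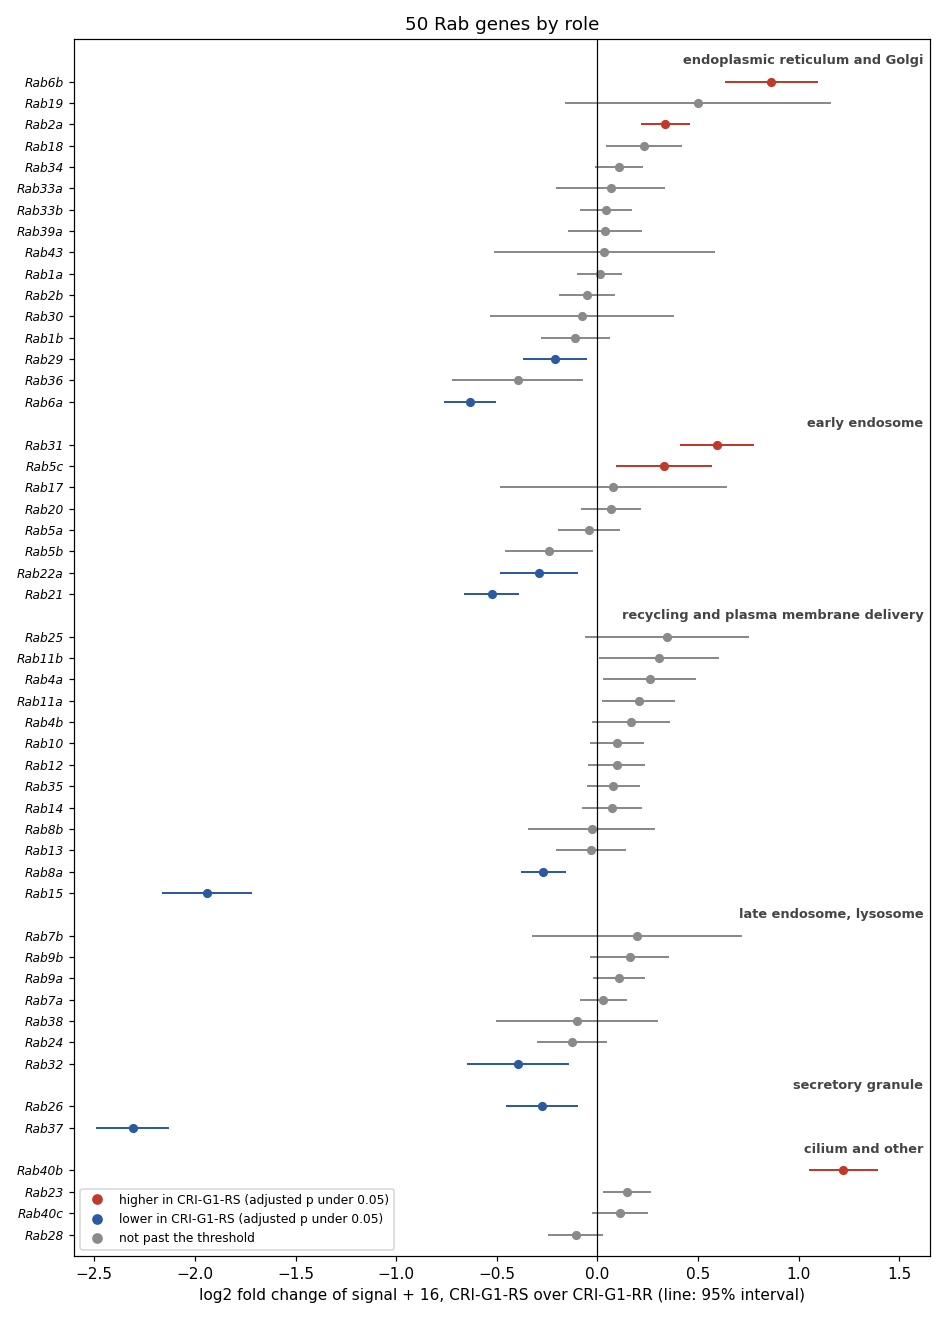
Log2 fold change (signal + 16, CRI-G1-RS over CRI-G1-RR, n = 6 arrays per line) of the 50 Rab genes with 95% intervals, grouped by role, with red for higher, blue for lower and grey for not past an adjusted p of 0.05. Rab37 at -2.31 and Rab15 at -1.94 stand far to the left, and Rab40b at 1.22 lies farthest to the right.

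Rab37 and Rab15 fell by far the most of the 50 genes, to a 4.96-fold and a 3.84-fold lower signal in RS cells by the probe set that stands for each. Rab37 is a secretory granule protein of insulin and mast cells. Its signal had a lowest, median and highest value of 2051, 2455 and 2722 on the RR arrays and of 426, 461 and 505 on the RS arrays, and the same 3 values are given in this order for the other genes. The lowest RR array was thus far above the highest RS array. The log2FC was -2.31 (standard error, SE, = 0.08, adjusted p = 8.82e-10 by limma). With bulk RNA, fewer cells that express a gene and less RNA per cell cannot be told apart. Rab26, the relative of Rab37 that acts in granule maturation and on synaptic vesicles, moved much less. It measured 368, 408 and 444 on the RR arrays and 293, 337 and 402 on the RS arrays, and the lines overlapped. Its log2FC was -0.28 (SE = 0.08, adjusted p = 0.0174). Rab37 and Rab26 were the only genes counted under the secretory granule, with the Rab3 and Rab27 genes left out. They are too few to be read as a group, where 39.2% of all genes were called.

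Among the 13 Rab genes of recycling endosomes and delivery to the plasma membrane, 2 fell, none rose and 11 did not pass. That is 15.4% called, beside 39.2% of all genes. The groups by role are small, and none was tested against the other genes. Rab15, a protein of the early and recycling endosome found mainly in neural cells, measured 979.65, 1161 and 1457 on the RR arrays and 267, 301 and 321 on the RS arrays. The lines were far apart, and all 3 Rab15 probe sets were lower. The representative had a log2FC of -1.94 (SE = 0.10, adjusted p = 2.47e-08), and the dimmer probe sets fell less, with -1.28 and -1.34. Rab8a, which carries cargo from the Golgi to the plasma membrane and the cilium, measured 1214, 1241 and 1343 on the RR arrays and 964, 1053 and 1099 on the RS arrays. This shift was small but the arrays did not overlap, with a log2FC of -0.27 (SE = 0.05, adjusted p = 9.64e-04). The Rab4, Rab11, Rab12, Rab13, Rab14, Rab25 and Rab35 genes, with Rab8b and Rab10, lay between -0.03 and 0.35. Rab10, which acts in regulated delivery of glucose transporters, had a log2FC of 0.10 (adjusted p = 0.256) by its brighter probe set of mean signals 1907 and 1998, but its other probe set rose by 0.41 (adjusted p = 9.69e-04).

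Of the 16 Rab genes of the endoplasmic reticulum and Golgi, 2 rose, 2 fell and 12 did not pass. That is 25% called, beside 39.2% of all genes. Rab6a and Rab6b, the general and the neural form of the Rab of retrograde Golgi traffic, moved in opposite directions. The Rab6a signal was 1609.5, 1704 and 1813 on the RR arrays and 984, 1095 and 1179 on the RS arrays. Those ranges lie well apart, and both Rab6a probe sets were lower, the representative with a log2FC of -0.63 (SE = 0.06, adjusted p = 2.42e-06). Rab6b was dim in RR cells, with 25.3, 39.8 and 50.3, and higher in RS cells, with 72.0, 85.8 and 98.6. No RS array of Rab6b reached down to the RR arrays, and the log2FC was 0.86 (SE = 0.10, adjusted p = 2.96e-05). Its second probe set, dimmer still, gave 0.45 (adjusted p = 0.0862).

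Rab2a, needed for traffic between the endoplasmic reticulum and the Golgi and for granule formation, rose on both of its probe sets. Its brighter one measured 2208, 2345 and 2599.55 on the RR arrays and 2797, 2896 and 3009.8 on the RS arrays. The lines did not overlap, and the log2FC was 0.34 (SE = 0.05, adjusted p = 3.13e-04). Rab29, which recruits the kinase LRRK2 to Golgi and lysosomal membranes, measured 423, 481 and 513 on the RR arrays and 357, 419.8 and 439 on the RS arrays. The arrays overlapped, and the log2FC of -0.21 (SE = 0.07, adjusted p = 0.0372) lost the call in 11 of 23 alternatives. Rab1a and Rab1b, which act in export from the endoplasmic reticulum, had 0.01 and -0.11, but the Rab1b probe set is of a kind that can bind other transcripts. Rab30, a Golgi protein, had -0.08 (adjusted p = 0.836) by its representative, while its second probe set rose from a mean signal of 36.7 to 94.8, with a log2FC of 1.05 (adjusted p = 2.29e-05 by limma). Which probe set reads the main Rab30 transcript was not tested. Rab18, Rab19, Rab33a, Rab33b, Rab39a and Rab43, the other genes of this group apart from relatives described below, lay between 0.03 and 0.50 and did not pass.

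**Figure D2:**
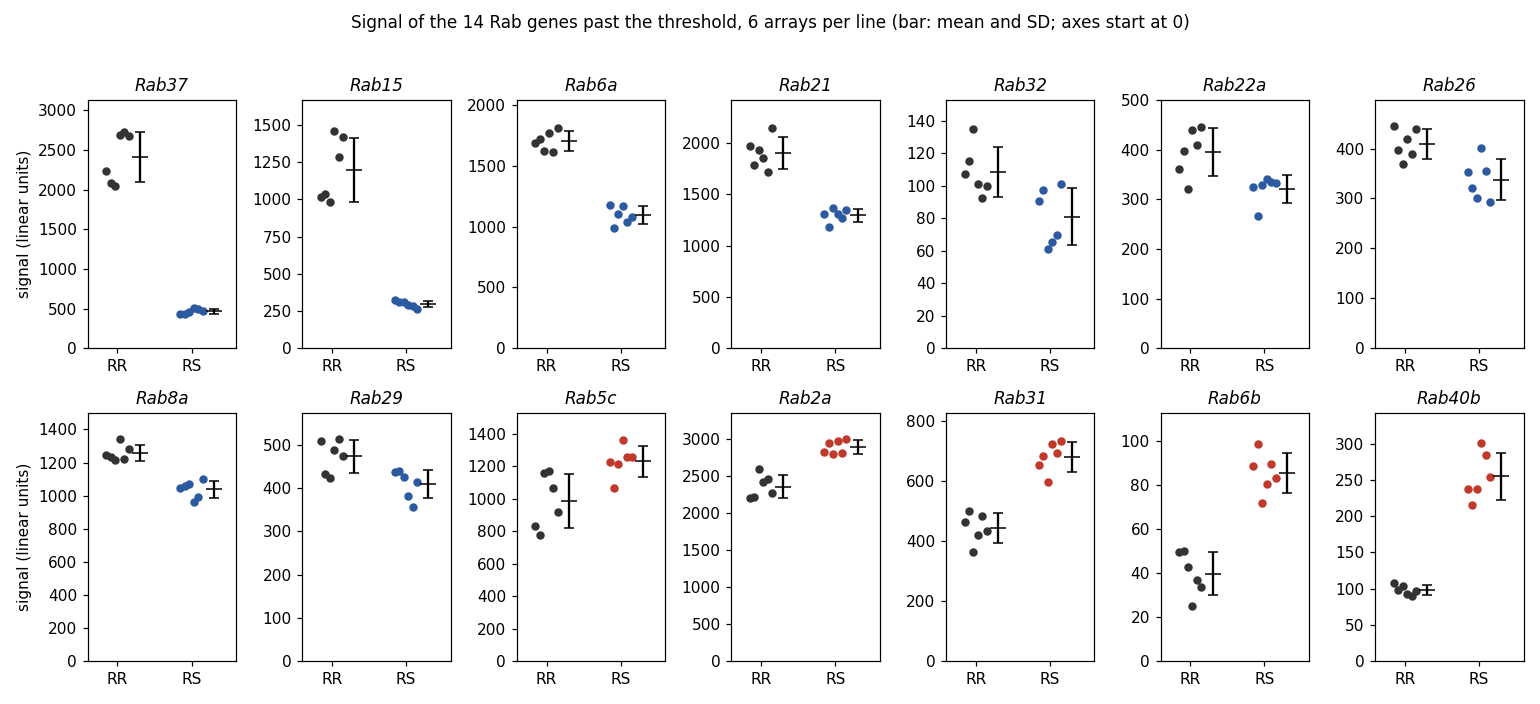
Signal in linear units on each array for the 14 Rab genes past the threshold, with 6 CRI-G1-RR arrays (black) and 6 CRI-G1-RS arrays (blue lower, red higher) per panel and bars for mean and SD. The ranges of the lines lie apart for Rab37, Rab15, Rab6a, Rab21, Rab8a, Rab2a, Rab31, Rab6b and Rab40b, and overlap for Rab32, Rab22a, Rab26, Rab29 and Rab5c.

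Of the 8 early endosome genes, 2 were higher, 2 lower and 4 not past the threshold. That is 50% called, beside 39.2% of all genes. Rab21, which takes up integrins, measured 1713, 1892 and 2150.3 on the RR arrays and 1182, 1308 and 1363 on the RS arrays. It was lower on every RS array, with a log2FC of -0.53 (SE = 0.06, adjusted p = 1.77e-05). Rab22a, which sorts cargo between early endosomes and the Golgi, measured 322, 403 and 446 against 266, 332 and 341. These overlapped, yet all 3 of its probe sets were lower, the representative with -0.29 (SE = 0.09, adjusted p = 0.0204). The other Rab22a probe sets had -0.25 and, without overlap, -0.71. Its closest relative Rab31, which acts from the trans-Golgi network to endosomes, moved the other way, from 363, 449 and 500.5 to 596, 689 and 732. All RS arrays were above all RR arrays, with a log2FC of 0.59 (SE = 0.08, adjusted p = 8.60e-05), while its second, dim probe set had -0.17 (adjusted p = 0.334).

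Rab5 governs the fusion of early endosomes and is encoded by 3 genes. Rab5c measured 779.6, 990.2 and 1169 on the RR arrays and 1068, 1241 and 1357 on the RS arrays. It rose by 0.33 on the log2 scale (SE = 0.11, adjusted p = 0.0315), with overlap, and lost the call in 8 of 23 alternatives. Rab5a had -0.04 (adjusted p = 0.722) and Rab5b -0.24 (adjusted p = 0.0842), and neither passed. Rab17, an epithelial Rab of transcytosis, was dim in both lines, with medians of 12.9 and 14.7, and no level can be read from it. Rab20 had 0.07.

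Of the 7 genes of late endosomes, lysosomes and related organelles, Rab32 alone passed. That is 14.3% called, beside 39.2% of all genes. Rab32, which acts in the making of lysosome-related organelles and also sits at mitochondria, measured 92.1, 104 and 135 on the RR arrays and 61.2, 80.1 and 101 on the RS arrays. It was lower with some overlap, with a log2FC of -0.39 (SE = 0.11, adjusted p = 0.0180). Rab7a, the main Rab of late endosomes, had 0.03 (95% interval -0.08 to 0.14) by its brighter probe set, of mean signals 3008 and 3001, while the other probe set rose by 0.34 (adjusted p = 0.00596). Rab7b, Rab9a, Rab9b, Rab24 and Rab38 lay between -0.13 and 0.19.

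Of the remaining 4 genes, Rab40b alone was called, or 25% beside 39.2% of all genes, and it rose. It belongs to the Rab proteins with a SOCS box, which joins them to a ubiquitin ligase, and measured 89.4, 97.7 and 107 on the RR arrays and 216, 246 and 300.2 on the RS arrays. The RS arrays were all far above, with a log2FC of 1.22 (SE = 0.08, adjusted p = 1.13e-07), and its second probe set rose too. Rab23, a regulator of Hedgehog signals at the cilium, measured 169, 176 and 185 on the RR arrays and 189, 195 and 217 on the RS arrays. Its arrays did not overlap, but the difference of 0.15 did not pass (adjusted p = 0.0541). Rab28 had -0.11 and Rab40c 0.11.

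In all, 36 Rab genes did not pass, with log2FC values between -0.40 (Rab36) and 0.50 (Rab19). For 28 of them the 95% interval of the representative probe set lay within 0.5 on either side. For the others a change of that size cannot be set aside at this precision. Nor can it for Rab7a, Rab10, Rab14 and Rab20 among the 28. Their other, called probe sets had upper bounds of 0.52, 0.57, 0.59 and 0.59. Rab39a, also among the 28, had mean signals of 1.93 in RR and 2.54 in RS cells, where no change can be read. Rab17, Rab19, Rab25, Rab39a and Rab43 had a mean signal under 50, and the 7 genes between 50 and 100 held 2 calls, Rab6b and Rab32. For 6 of the 36, Rab7a, Rab10, Rab11b, Rab14, Rab20 and Rab30, another, dimmer probe set was called higher. No gene had probe sets called in both directions. Of the 14 called genes, 7 had several probe sets, and in 5 of those 7 all were called the same way.

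Related Rab genes were compared as pairs to see where they changed unequally. The difference of their log2 values on each array was compared between the lines by an exact two-sided permutation test for 22 pairs, and 9 differed at an adjusted p under 0.05. For 6 pairs the exact p was the smallest that 6 arrays against 6 allow, 0.00216, or 0.00794 after adjustment. Rab26 lay above Rab37 in its change by 2.03 (95% interval 1.84 to 2.22), Rab40b above Rab40c by 1.11 (0.90 to 1.32), Rab2a above Rab2b by 0.39 (0.25 to 0.53), Rab6a below Rab6b with -1.50 (-1.77 to -1.22), Rab22a below Rab31 with -0.89 (-1.11 to -0.66), and Rab8a below Rab10 with -0.37 (-0.48 to -0.26). Each of these 6 held in all 18 alternatives.

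Within the Rab5 genes, Rab5b was below Rab5c with a difference of -0.57 (95% interval -0.89 to -0.25, adjusted exact permutation p = 0.0136), and Rab5a below Rab5c with -0.37 (-0.65 to -0.09, adjusted exact permutation p = 0.0179). The second of these was lost whenever any CRI-G1-RS array was left out, with adjusted p up to 0.106. Rab34, a protein of the Golgi and of cilium formation, lay above its relative Rab36 by 0.50 (0.11 to 0.90, adjusted exact permutation p = 0.0476), and held in only 7 of 18 alternatives. Rab34 measured 1327, 1337 and 1434 on the RR arrays and 1320.1, 1452 and 1563 on the RS arrays, and Rab36 measured 50.6, 69.9 and 81.8 against 36.3, 47.7 and 68.4. Neither gene passed by itself, with a log2FC of 0.11 (adjusted p = 0.154) in Rab34 and -0.40 (adjusted p = 0.0584) in Rab36.

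The partners that did not pass are given beside them. Rab2b measured 379, 397 and 448 on the RR arrays and 361, 389 and 437 on the RS arrays, nearly the same range, and had -0.05 (adjusted p = 0.609). Rab40c, with 145, 164 and 185 against 167, 181 and 199, overlapped and had 0.11 (adjusted p = 0.210). Rab5a, with 655, 739 and 865 against 655, 731 and 778, overlapped almost wholly. Rab5b, with 919, 1045 and 1258 against 798, 873 and 1090.2, was lower in the median of the RS arrays with a wide overlap. Rab10, with 1679, 1944 and 2103 against 1878, 2008 and 2091, overlapped as well.

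For 13 pairs no difference passed, and the intervals say how large one could be. They were narrow for Rab1a and Rab1b (-0.05 to 0.29) and for Rab4a and Rab4b (-0.13 to 0.31). They were wider for Rab11a and Rab11b (-0.36 to 0.16) and widest for pairs with a dim gene, such as Rab30 and Rab43 (-0.84 to 0.62).

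**Figure D3:**
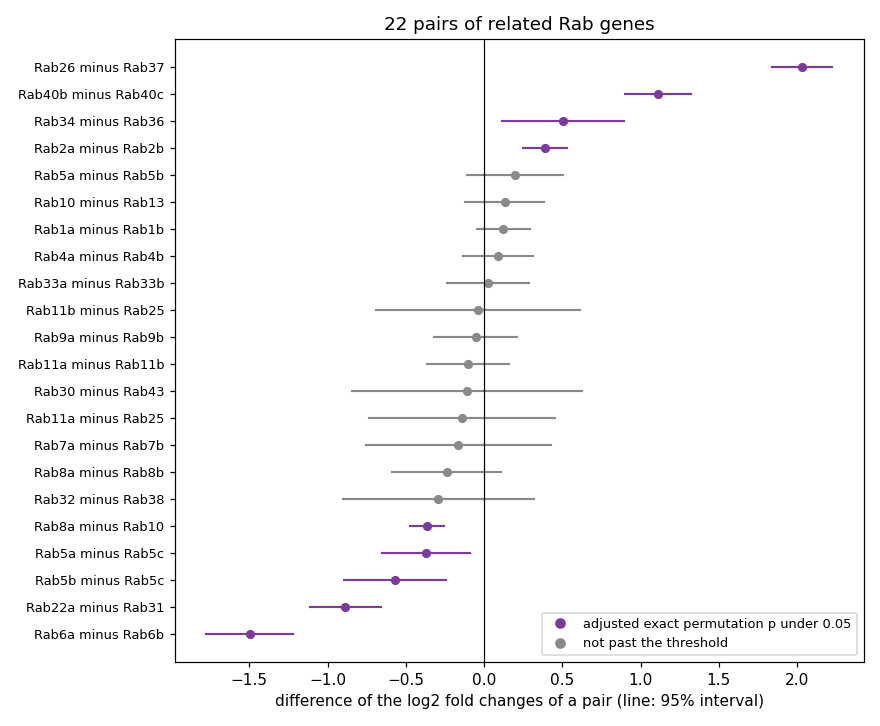
Difference of the log2 fold changes within each of 22 pairs of related Rab genes (first minus second gene) with 95% intervals, in purple where the adjusted exact permutation p is under 0.05. Rab26 minus Rab37 at 2.03 and Rab6a minus Rab6b at -1.50 lie at the ends.

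The position of the genes was examined next, since stretches of neighbouring genes can move together. For each Rab gene the median log2FC was taken over its 50 nearest genes on GRCr8 with a mean signal of at least 100. It was 0.3 or more from 0 for 6 Rab genes, each of them negative, and 3 of these were among the 14 called. Rab21, on chromosome 7 (52790158 to 52814943), had the lowest, -0.89 over a span of 21.7 Mb, in which 3 of 50 neighbours had a positive value. Rab21 itself fell by less than that median, 0.53 on the log2 scale. Rab6a, on chromosome 1 (164370033 to 164422324), fell by 0.63 where its neighbours had a median of -0.36 and 8 of 50 were positive. The part of position in these changes was not tested.

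Rab31 and Rab12 lie close together on chromosome 9 and share a window with a median of -0.37, in which 9 of 50 genes were positive. Rab31 (112693596 to 112828104) rose there, and Rab12 (113927119 to 113953722), which acts between recycling endosomes and lysosomes, had 0.09 (adjusted p = 0.303), from 1896, 2016 and 2323 on the RR arrays to 2033, 2128 and 2276 on the RS arrays, almost the same range. Rab17, at a lower position on chromosome 9 (99001044 to 99014340), had neighbours with a median of -0.35. It had 0.08 itself (adjusted p = 0.866), from 6.42, 12.9 and 42.8 to 9.79, 14.7 and 35.9, all dim. Rab1b, on chromosome 1 (211835133 to 211843408), had -0.11 (adjusted p = 0.330) among neighbours with a median of -0.41, from 312, 369 and 379 to 293, 330.2 and 394, with overlap. Rab37, Rab15 and Rab40b, the largest changes, had neighbour medians of -0.05, -0.0012 and 0.05, with 24, 25 and 33 of 50 positive.

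**Figure D4:**
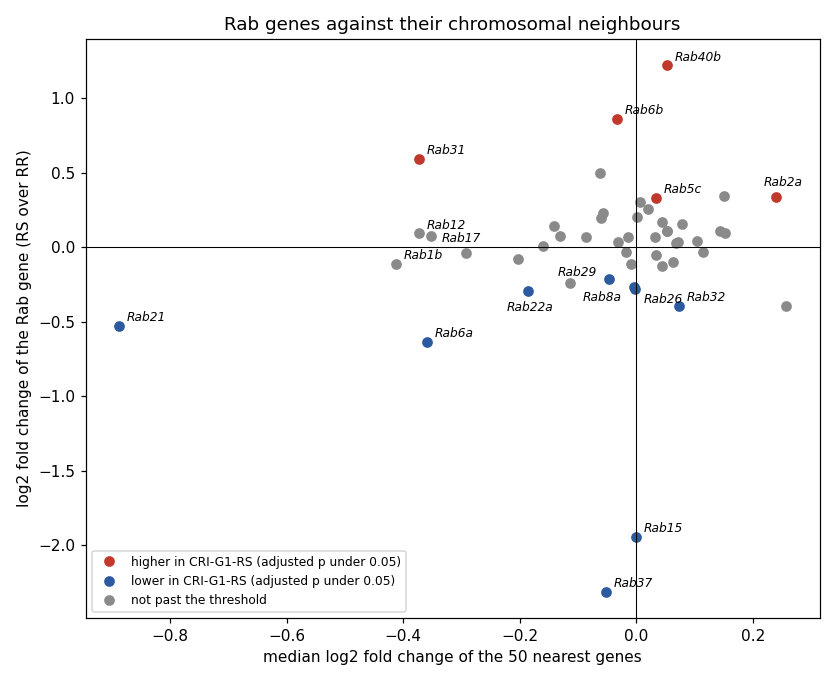
Log2 fold change of each Rab gene (vertical) against the median log2FC of its 50 nearest genes (horizontal), with red higher, blue lower, grey not past the threshold, and names for the called genes and those whose neighbours lie 0.3 or more from 0. Rab21 and Rab6a fell among neighbours with medians of -0.89 and -0.36, Rab31 rose among neighbours at -0.37, and Rab37, Rab15 and Rab40b lie near 0 on the horizontal axis.

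The genes that act on Rab proteins were listed whole, and of 182 listed genes 151 were measured. Of these, 33 were higher and 37 lower, or 46.4%, beside the 39.2% of all genes given above. At a mean signal of at least 100, 61 of 118 listed genes were called, or 51.7%, beside 53.8% of all genes. When a 1.2-fold change was tested, 9 and 19 passed. Exchange factors held 12 higher and 13 lower of 49, GTPase-activating proteins 7 and 9 of 33, effectors 11 and 13 of 54, the prenylation and escort genes 2 and 1 of 10, and the Rab-like genes 1 and 1 of 5. The medians of log2FC were 0.0013, -0.08, -0.05, 0.04 and -0.08.

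Among exchange factors, Rin2, which activates Rab5, fell most. It measured 197, 238 and 276 on the RR arrays and 30.5, 40.9 and 51.8 on the RS arrays. The ranges lie far apart, with a log2FC of -2.19 (SE = 0.11, adjusted p = 1.33e-08). Rab3ip, known as Rabin8 and an activator of Rab8, measured 1647, 1884 and 2004 on the RR arrays and 765, 815 and 885 on the RS arrays. It fell by 1.16 on the log2 scale (adjusted p = 2.13e-08), and its 50 neighbours had a median of -0.83. Of the Rab8 genes, Rab8a was lower as well, as given above, and Rab8b did not pass (-0.03, adjusted p = 0.916 by limma). A link between these changes was not tested. Hps1, a subunit of the BLOC-3 complex that activates Rab32 and Rab38, rose from 386, 411 and 437 to 722, 768 and 836. Its log2FC was 0.89 (adjusted p = 1.92e-07), opposite in sign to that of Rab32, and its neighbours had a median of 0.39. Rab38 had -0.10 and did not pass (adjusted p = 0.744 by limma). Trappc10, a subunit of the TRAPP complexes of the Golgi, rose by 0.69 (adjusted p = 8.50e-06).

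Among GTPase-activating proteins, Tbc1d16, which acts on Rab4, rose from 262, 296 and 336 on the RR arrays to 874, 917 and 1071 on the RS arrays. No arrays overlapped, and the log2FC was 1.61 (SE = 0.07, adjusted p = 6.34e-09). Evi5, which has been tied to Rab11, rose by 0.91 (adjusted p = 6.37e-06) among neighbours with a median of 0.63. Tbc1d8b fell from 429, 606 and 636 to 167, 193 and 207, a log2FC of -1.50 (adjusted p = 1.10e-07). Tbc1d15, which acts on Rab7, had -1.02 (adjusted p = 1.23e-06) among neighbours with a median of -0.85.

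Among effectors, Rab11fip4, which binds Rab11, rose most. It measured 103, 113 and 152 on the RR arrays and 332, 375 and 499.7 on the RS arrays. It rose by 1.54 on the log2 scale (SE = 0.10, adjusted p = 1.85e-07), and Rab11fip5, of the same family, rose by 1.12 (adjusted p = 1.36e-05), with no overlap in either. The other family members Rab11fip1, Rab11fip2 and Rab11fip3 had -0.08, -0.55 and -0.08 and did not pass (adjusted p = 0.564, 0.0688 and 0.892), and Wdr44, which also binds Rab11, was lower with -0.31 (adjusted p = 0.0108). These 4 were named after their values were seen. Rab11a and Rab11b, which bind them, had 0.21 and 0.31 and did not pass (adjusted p = 0.0731 and 0.107). Optn, or optineurin, which links Rab8 to myosin and to autophagy, measured 662, 697 and 780.2 on the RR arrays and 179, 205 and 230.4 on the RS arrays. It had a log2FC of -1.73 (SE = 0.06, adjusted p = 1.04e-09). Eea1, the tether that Rab5 recruits to early endosomes, measured 536, 647 and 713 on the RR arrays and 213, 243 and 271 on the RS arrays. Its log2FC was -1.35 (SE = 0.08, adjusted p = 5.93e-08), in a stretch whose median was -1.05.

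In the small lists, Rabggtb, the beta subunit of the geranylgeranyl transferase that lipidates Rab proteins, rose by 0.44 (adjusted p = 2.84e-04), from 1591, 1809 and 2011 to 2159, 2425 and 2562. Yipf2 rose by 0.38 (adjusted p = 0.00336) among neighbours with a median of 0.39, and Yipf3, of the same membrane protein family, had -0.85 (adjusted p = 4.90e-04). Of the Rab-like genes, Rabl2 rose by 0.48 (adjusted p = 6.47e-05), and Ift27, a Rab-like subunit of the intraflagellar transport complex, had -0.52 (adjusted p = 0.00967). Both of the latter act at the cilium.

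**Figure D5:**
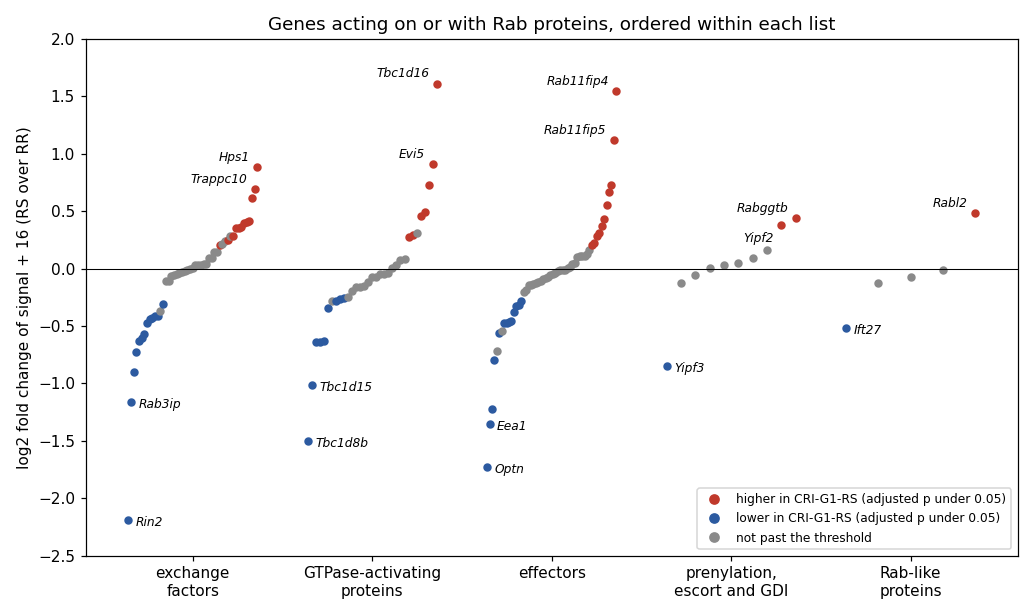
Log2 fold change (signal + 16, CRI-G1-RS over CRI-G1-RR) of 151 genes in 5 lists, ordered by value within each list, with red higher, blue lower and grey not past an adjusted p of 0.05. In the list of effectors Rab11fip4 at 1.54 and Optn at -1.73 are the extremes, and among exchange factors Rin2 at -2.19.

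The Rab3 and Rab27 genes, the exocytotic Rab genes left out above, held 3 higher and 2 lower of 6, where 39.2% of all genes were called. Their median absolute log2FC was 0.56 against 0.15 for the 50 genes described here and 0.21 over all genes. Whether these groups differ was not tested.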

How the data were processed

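Linear signal intensities of 31099 probe sets on 12 Affymetrix Rat 230 2.0 arrays were used as deposited by the authors. The submitters' processing notes name GCOS 1.4, and the values are not the log2 values of robust multi-chip averaging that the methods describe. After quantile normalization, log2(signal + 16) was fitted with limma 3.58.1 in R 4.3.3 on the line alone. Adjusted p-values are by Benjamini-Hochberg over all probe sets, with calls under 0.05, and 95% intervals assume normal errors. Overlap, ranges, means and SDs refer to deposited signals. The number of arrays limits the precision. Symbols come from the platform annotation, which gives 20832 probe sets 1 symbol, 436 several and 9831 none. Positions come from GRCr8, on which all 50 genes matched. Signals of different probe sets were compared to choose representatives, summed for markers and subtracted on each array for the pairs. They were not read as relative levels of different genes.

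The members, lists, pairs and tests were chosen with earlier results of these data known, so no list is independent evidence. All called Rab genes, both genes of pairs that differed, Rab genes among shifted neighbours, and the 2 called genes of largest change per direction in each list were given values. The fits were tested on simulated data. Alternatives were other centring, pseudocounts of 1 and 64, a signal filter of 50, the replicate number as a block, no cross-hybridising probe sets, array weights, an intensity trend, the mean of all probe sets, a 1.2-fold test and leaving out each array. Probe sets were counted as cross-hybridising by name alone, where it ended in _x_at, _s_at or _a_at, and binding to other genes was not tested.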

Additional observations from a re-analysis of the deposited data

Results flagged for a closer look

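Each gene was examined in each line for a single array far from the other 5, by the gap to the nearest array over the whole range. Of 100 such groups 7 held one, and chance gives about 1 in 20. In CRI-G1-RR cells, Rab17 measured 42.8 in replicate 6 against 6.42 to 19.8 on the other arrays, Rab39a 4.36 in replicate 6 against 1.03 to 1.82, Rab34 1434 in replicate 5 against 1327 to 1367, and Rab35, which acts in fast recycling at the plasma membrane, 459 in replicate 5 against 515 to 532. In CRI-G1-RS cells, Rab22a measured 266 in replicate 2 against 325 to 341, Rab9a, which acts from late endosomes to the Golgi, 688 in replicate 2 against 754 to 789.8, and Rab7b 27.1 in replicate 6 against 68.7 to 84.0. Rab22a is the only called gene among them, and without replicate 2 of CRI-G1-RS its log2 fold change was -0.24 (adjusted p = 0.0372 by limma).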

How the results depend on the processing

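Over 23 alternatives, 7 of the 14 called Rab genes kept their direction and call in each one: Rab6a, Rab6b, Rab15, Rab21, Rab31, Rab37 and Rab40b. Rab29 lost the call in 11, Rab5c in 8 and Rab22a in 2, while Rab2a, Rab8a, Rab26 and Rab32 lost it only when a 1.2-fold change was tested. The 5 higher Rab genes became 8 with a pseudocount of 64, 9 with the signal filter, 10 with array weights, 11 with the mean of all probe sets, 3 in the 1.2-fold test, and 4 to 10 when an array was left out, the 10 without replicate 2 of CRI-G1-RS. In the same 1.2-fold test the 9 lower Rab genes became 4, and the 33 higher and 37 lower genes of the lists became 9 and 19. The causes were not tested. Pairs that differed numbered 7 to 11 over 18 alternatives.

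Among the named Rab genes, signs turned only for ones that did not pass in the main analysis. With the mean of all probe sets, Rab2b had 0.0073, Rab12 -0.036, Rab17 -0.070, Rab30 0.49 and Rab34 -0.051, and without cross-hybridising probe sets Rab17 had -0.017. With array weights Rab30 had 0.030. Leaving out an array moved Rab17 between -0.053 and 0.29 and Rab30 between -0.20 and 0.053.

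With the replicate number as a block (replicate block), 5 Rab genes were higher and 9 lower, with 13 of the 14 calls shared, and 9204 in place of 9860 probe sets were called. Same-numbered arrays did not deviate together, with correlations of -0.06 to 0.08, and 2 of the 6 RR arrays matched their own number best. Whether the number marks the pair of passages cannot be told from these values, since a weak shared effect would not be seen. Dim genes limit the precision: 5 Rab genes had a mean signal under 50.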

Other observations

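Further genes that work with Rab5 on early endosomes, named here after their values were seen, did not move one way. Appl2, an adaptor that binds Rab5 on endosomes lacking Eea1, had a mean signal of 818 with an SD of 71.6 over 6 RR arrays and of 343 with an SD of 34.7 over 6 RS arrays, a log2FC of -1.22 (adjusted p = 1.26e-07 by limma), and its 50 nearest genes had a median of -1.03. Its relative Appl1 rose by 0.37 (adjusted p = 0.00121). Rabep1 and Rabep2, the rabaptins, had -0.28 (adjusted p = 0.0194) and -0.38 (adjusted p = 5.63e-04), and Rbsn, or rabenosyn-5, rose by 0.21 (adjusted p = 0.0195). Rin1, a relative of Rin2 that also activates Rab5, was dim and rose by 0.61 (adjusted p = 0.0365). Others did not pass, among them Rabgef1 (-0.03, adjusted p = 0.851), Gapvd1 (-0.0014, adjusted p = 0.993) and Ankfy1 (-0.01, adjusted p = 0.918).

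Of the 151 listed genes, 5 had neighbours with a median of -0.8 or less: Eea1, Appl2, Rab3ip, Tbc1d15 and Tbc1d30. The first 4 were lower, and Tbc1d30 had -0.16 (adjusted p = 0.352). This bound differs from the 0.3 used above. The same count was not made over all genes with such neighbours, so it cannot be read as a trait of the listed genes.

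In CRI-G1-RR, replicates 1 to 3 lay all below replicates 4 to 6 for 8 of the 50 Rab genes and all above for 4, and in CRI-G1-RS for 7 and 3. Rab37, Rab15, Rab5b, Rab22a and Rab10 were among the 8. In replicates 1, 2 and 3 of CRI-G1-RR, Rab37 measured 2234, 2088 and 2051 and Rab15 measured 1018, 1037 and 979.65. In replicates 4, 5 and 6, Rab37 measured 2691, 2722 and 2676 and Rab15 measured 1457, 1285 and 1418. In CRI-G1-RS, Rab37 was again lower in replicates 1, 2 and 3 (426, 427 and 455) than in 4, 5 and 6 (505, 499 and 467), while Rab15 was higher in the first 3 (321, 311 and 313) than in the others (292, 283 and 267). This division was seen in the values and was not tested. The same count was not made over all genes, so it cannot be read as a trait of Rab genes. In either set of replicates, each RS array was far below each RR array for both genes.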
